A study of Mus musculus with 6 samples.

Results

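The platelet-derived growth factor (PDGF) genes examined here are the 4 ligand genes Pdgfa, Pdgfb, Pdgfc and Pdgfd, the receptor genes Pdgfra and Pdgfrb, the receptor-like gene Pdgfrl and the co-receptor gene Nrp1. They were taken by symbol from gene tables of 18059 genes each, and all 8 were present and tested. The tables describe messenger RNA of primary cardiac fibroblasts, which lay down the collagen matrix of the heart, from C57BL/6 mice 1 to 2 weeks old. The cells were grown in medium with 15% serum and received saline (control, 3 libraries) or PDGF-DD, the dimer of PDGF-D (3 libraries), for 12 hours. The labels give the dose as 20 µM, a very high concentration for a growth factor, so its unit is doubtful. The growth protocol derives the cells of both groups from mice that lack PDGF-D in the whole body. The genotype field instead reads control for the saline libraries and PDGF-D -/- for the PDGF-DD libraries. If that field is right, genotype and treatment cannot be told apart; libraries are grouped here by their titles. The labels name neither the Pdgfd allele nor whether libraries within a group were independent cultures or animals. The p-values therefore set the difference between the groups only against the variation between these libraries, which may be technical. They may not hold for new cultures or animals.

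PDGF ligands are secreted dimers that bring receptor chains together and so switch on their tyrosine kinases. PDGF-A and PDGF-B are cut inside the cell and secreted active, whereas PDGF-C and PDGF-D carry a CUB domain that proteases such as tissue plasminogen activator and urokinase remove outside it. PDGFRα binds PDGF-A, PDGF-B and PDGF-C, and PDGFRβ binds PDGF-B and PDGF-D. In the heart PDGFRα marks fibroblasts, and PDGFRβ is best known from pericytes and smooth muscle cells around vessels.

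Depth was nearly equal, between 21221114 and 21371829 estimated counts per library. Precision was limited mainly for the genes with the lowest counts. The fibroblast markers Col1a1, Col1a2, Col3a1, Dcn, Tcf21, Thy1, Ddr2 and Vim were all detected, with a summed level of 22800 to 24700 TPM (a transcript level per length, scaled to the same sum in each library) in control and 21900 to 22100 TPM with PDGF-DD. Of the fibroblast markers, 1 of 8 rose and 5 fell, where 19.1% of all genes tested rose and 17.4% fell. Markers of other cells were present: 6 endothelial markers summed to 142 to 158 TPM in control and 137 to 141 TPM with PDGF-DD, and 6 macrophage markers to 384 to 405 and 332 to 352 TPM, most of it Lyz2. The summed levels of 6 cardiomyocyte markers were 315 to 336 TPM in control and 224 to 252 TPM with PDGF-DD, most of it Tnnt2. Among all markers checked, Hbb-b1 alone was at 0 in the 6 libraries.

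With PDGF-DD, 3 of the 8 PDGF genes rose (Pdgfa, Pdgfra and Nrp1), 2 fell (Pdgfrb and Pdgfd) and 3 did not pass the test (Pdgfb, Pdgfc and Pdgfrl). A gene was called at an adjusted p under 0.05 in edgeR's quasi-likelihood test over 13270 genes. In that comparison 36.5% of all genes tested were called, 19.1% as higher and 17.4% as lower. The median log2 fold change of the 8 genes was -0.0047, beside -0.0115 over all genes tested. Changes of a gene are given in CPM, its count scaled to the size of the library, and levels compared between genes in TPM.

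**Figure D1:**
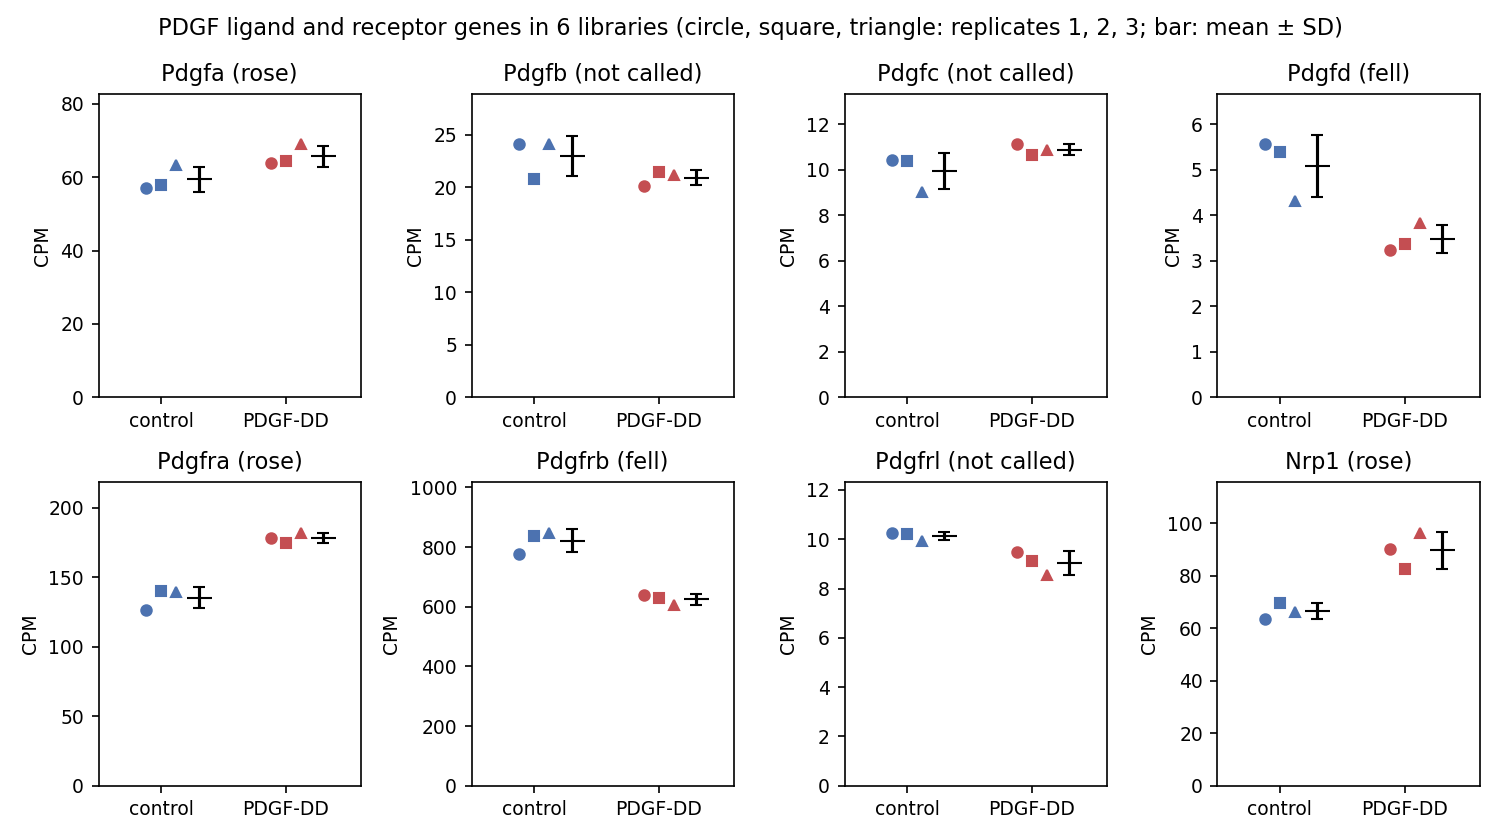
CPM of the 8 PDGF genes by library, 1 panel per gene with the y axis from 0; circles, squares and triangles are replicates 1, 2 and 3, and the bar is the mean ± SD over 3 libraries. The control and PDGF-DD libraries lie apart for 7 of the 8 genes, Pdgfa, Pdgfc and Pdgfrl included, while those of Pdgfb overlap.

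Pdgfrb, which encodes PDGFRβ, the main receptor of PDGF-D, was the most abundant of the 8 genes. Its values were 777.0, 838.6 and 848.4 CPM in the control libraries and 639.5, 629.0 and 604.3 CPM in the PDGF-DD libraries. The lowest control library, replicate 1, was above the highest PDGF-DD library. Pdgfrb fell by 0.40 on the log2 scale (95% interval -0.48 to -0.31, edgeR adjusted p = 1.38e-08), to 0.76 of its control level. Among all genes tested, 14.2% had a larger absolute log2 fold change.

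Some markers of the vessel-wall cells in which PDGFRβ is best known also fell. Of 5 smooth muscle markers (Myh11, Acta2, Tagln, Cnn1 and Smtn) 4 fell and none rose, where 17.4% of all genes tested fell. Their summed level was 9030 to 9160 TPM in control and 7180 to 7440 TPM with PDGF-DD, most of it Acta2 and Tagln. In control Acta2 was at 6260, Tagln at 2640 and Myh11 at only 9.53 TPM. Which cells these transcripts came from was not tested. Of 5 tested pericyte markers 2 fell (Rgs5 and Notch3) and 1 rose (Cspg4), while Mcam and Abcc9 did not pass, and the summed level of all 6 was 161 to 176 TPM in control and 143 to 148 TPM with PDGF-DD. Kcnj8 and Abcc9, channel genes of pericytes, were under 1 TPM in every library. The part of these markers in the fall of Pdgfrb was not tested. In bulk samples fewer cells of a type and less RNA per cell cannot be told apart.

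Pdgfra encodes PDGFRα. It was measured at 126.5, 140.0 and 139.1 CPM in control and at 178.2, 174.7 and 182.0 CPM with PDGF-DD. Every PDGF-DD library was above every control library, and control replicate 1 was again the lowest. Pdgfra rose 1.32-fold (log2 fold change 0.40, 95% interval 0.31 to 0.49, edgeR adjusted p = 3.78e-08). Without control replicate 1 its log2 fold change was 0.35, and that of Pdgfrb was -0.43. Of the 8 fibroblast markers above, 5 fell and 1 (Vim) rose, where 17.4% of all genes tested fell and 19.1% rose. Tcf21, a transcription factor of cardiac fibroblasts, fell most, by 0.60 on the log2 scale. The log2 fold changes of Col1a1, Col1a2, Col3a1 and Dcn were -0.22, -0.13, -0.29 and -0.22.

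Nrp1 encodes neuropilin 1, a membrane co-receptor for semaphorins and vascular endothelial growth factors that also associates with PDGF receptors. Its 6 values were 63.48, 69.5 and 66.18 CPM in control and 90.15, 82.47 and 96.37 CPM with PDGF-DD. The groups were apart, with the widest spread in the PDGF-DD group, where replicate 2 was lowest. Nrp1 rose 1.35-fold (log2 fold change 0.43, 95% interval 0.32 to 0.54, edgeR adjusted p = 7.89e-07). Its counts were not whole numbers in all 6 libraries, as happens where the counting divides reads between genes.

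Pdgfrl encodes a secreted protein that resembles the ligand-binding part of the receptors and has no kinase. It stood at 10.27, 10.2 and 9.927 CPM in control and at 9.475, 9.111 and 8.532 CPM with PDGF-DD. All 3 PDGF-DD libraries were lower than all 3 control libraries, but the difference did not pass the test (log2 fold change -0.16, 95% interval -0.35 to 0.02, edgeR adjusted p = 0.15). Of all genes tested, 47.1% had groups that did not overlap, beside 7 of the 8 PDGF genes.

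**Figure D2:**
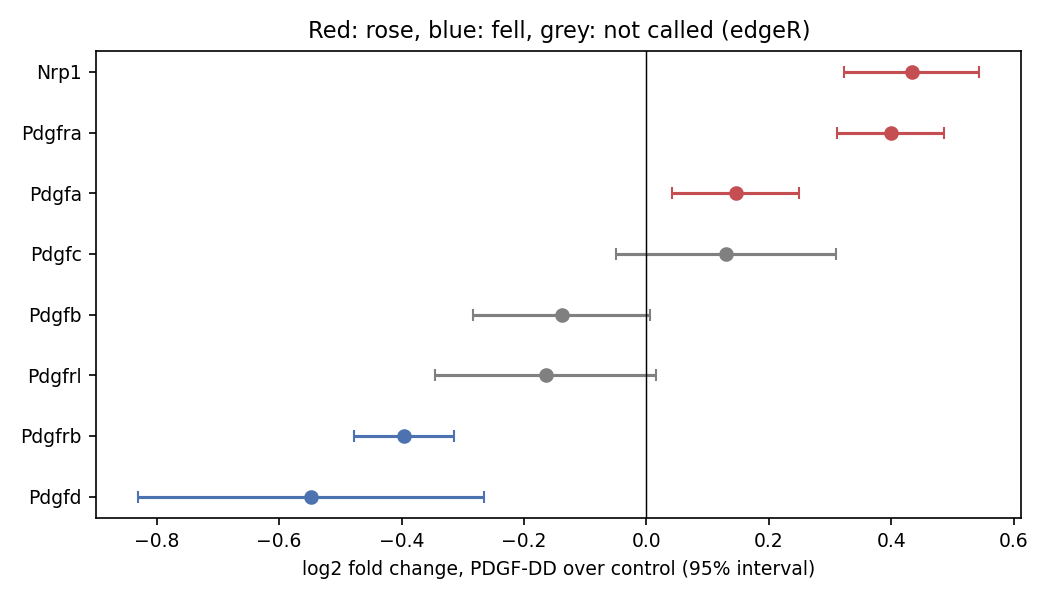
Log2 fold change of the 8 PDGF genes, PDGF-DD over control, with 95% intervals from edgeR; red marks genes that rose, blue genes that fell and grey genes not called. Nrp1 (0.43) and Pdgfra (0.40) lie to the right of 0 and Pdgfrb (-0.40) and Pdgfd (-0.55) to the left, while the intervals of Pdgfc, Pdgfb and Pdgfrl include 0.

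Pdgfd, the gene of the added ligand, is shown here also as a check of the labels. Its counts were 118, 114 and 91 in control and 69, 72 and 82 with PDGF-DD. Reads of the gene were thus present in every library, at lower counts in all 3 PDGF-DD libraries. In CPM this was 5.561, 5.383 and 4.302 in control and 3.237, 3.364 and 3.823 with PDGF-DD, a log2 fold change of -0.55 (95% interval -0.83 to -0.27, edgeR adjusted p = 0.00245). Its spread was the widest of the 8 genes, with a coefficient of variation of 13.4% in control and 8.88% with PDGF-DD. Counts summed over a gene cannot tell whether its edited part was lost. Ddi1, a gene annotated within Pdgfd on the other strand, had 1 count in control replicate 1 and 0 in the other libraries.

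Pdgfa, whose product homodimer PDGF-AA acts through PDGFRα alone, was the most abundant ligand gene. It was measured at 57.02, 57.98 and 63.25 CPM in control and at 63.79, 64.34 and 69.05 CPM with PDGF-DD. The highest control library, replicate 3, lay just under the lowest PDGF-DD library. Pdgfa rose 1.11-fold (log2 fold change 0.15, 95% interval 0.04 to 0.25, edgeR adjusted p = 0.0255), and 50.6% of all genes tested had a larger absolute change. The call was lost without control replicate 1 (edgeR adjusted p = 0.0796), control replicate 2 (0.1005) or PDGF-DD replicate 3 (0.1293), and under upper-quartile scaling (0.0537). DESeq2 also did not call it (adjusted p = 0.0703), and over all alternatives the adjusted p ranged from 0.0067 to 0.1293.

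Pdgfb, whose product binds both receptors and is made mainly by endothelial cells and platelets in vivo, did not pass the test. Its control libraries held 24.08, 20.82 and 24.11 CPM and its PDGF-DD libraries 20.08, 21.45 and 21.17 CPM. The groups overlapped because control replicate 2 lay among the PDGF-DD values. The log2 fold change was -0.14 (95% interval -0.28 to 0.01, edgeR adjusted p = 0.129), and without control replicate 2 it was -0.205 and passed (edgeR adjusted p = 0.0361; from 0.0361 to 0.367 over all alternatives). Its counts were not whole in any library either.

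Pdgfc, like Pdgfd a ligand with a CUB domain, was measured at 10.42, 10.39 and 9.029 CPM in control and at 11.12, 10.65 and 10.86 CPM with PDGF-DD. All PDGF-DD libraries were higher, and the difference did not pass the test (log2 fold change 0.13, 95% interval -0.05 to 0.31, edgeR adjusted p = 0.264). Without control replicate 3, its lowest library, the log2 fold change was 0.06.

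Per transcript length, Pdgfrb stood far above the other genes in both groups. In control it was at 351.8 ± 26.3 TPM (SD, n = 3), rank 440 among the 17025 genes listed above 0, and 6.36 times the next gene, Pdgfa. Then followed Pdgfa at 55.3 ± 4.09, Pdgfra at 48.2 ± 4.08, Nrp1 at 25.8 ± 1.87, Pdgfb at 16.9 ± 1.39, Pdgfrl at 15.5 ± 0.335, Pdgfc at 6.53 ± 0.483 and Pdgfd at 3.73 ± 0.509 TPM. The libraries of neighbouring genes in this order did not overlap, except those of Pdgfb and Pdgfrl. With PDGF-DD the order of the means was the same, and Pdgfa (63.4 ± 2.86 TPM) and Pdgfra (63.2 ± 1.86 TPM) overlapped, while Pdgfb (15.5 ± 0.839 TPM) and Pdgfrl (13.7 ± 0.744 TPM) did not.

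**Figure D3:**
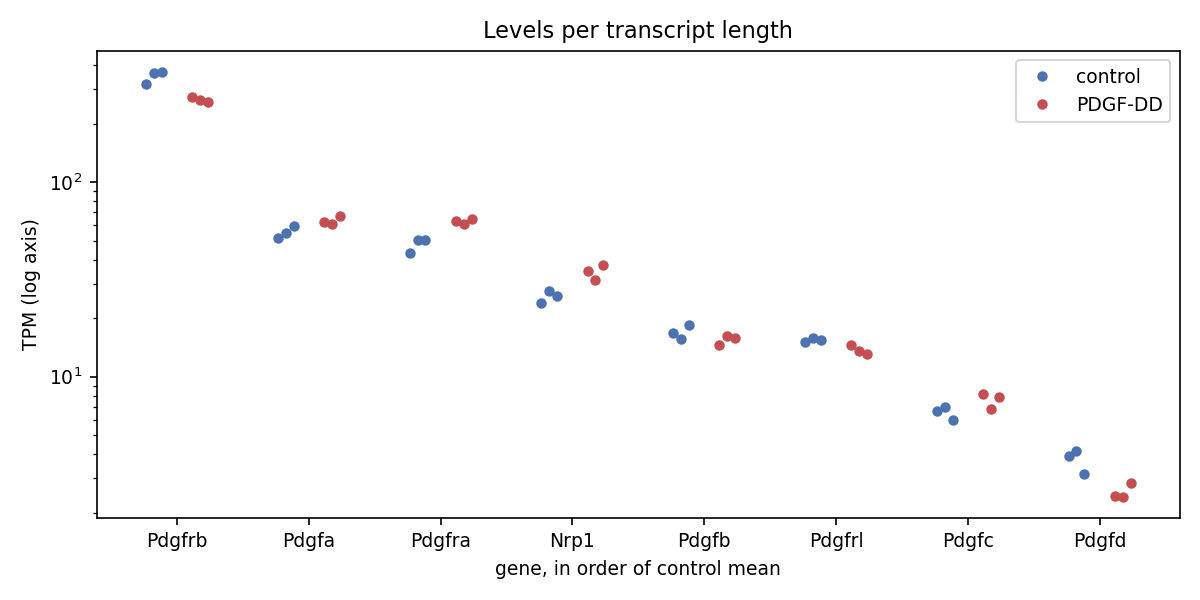
TPM of the 8 PDGF genes on a log axis, ordered by control mean; each point is 1 library, blue for control and red for PDGF-DD. Pdgfrb lies between 258.56 and 368.58 TPM and Pdgfd, the lowest gene, between 2.42 and 4.13 TPM.

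The opposite changes of both receptor genes altered their ratio. Pdgfrb had 7.397, 7.236 and 7.284 times the TPM of Pdgfra in the control libraries and 4.335, 4.308 and 3.98 times with PDGF-DD. The ratio varied little within a group and was lower in every PDGF-DD library, from 7.31 ± 0.0827 to 4.21 ± 0.198 (SD, n = 3 each). Pdgfra made up 12.0% ± 0.118 of the summed TPM of both receptor genes in control and 19.2% ± 0.747 with PDGF-DD, and that sum was 400.0 ± 30.4 and 328.7 ± 7.72 TPM. Pdgfrb was most of the sum in every library, and the sum was lower in every PDGF-DD library. These ratios are derived from the 2 genes already described and were not tested separately.

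Among the 4 ligand genes, Pdgfa held 67.0% ± 1.59 of the summed TPM in control and 71.2% ± 0.428 with PDGF-DD. The share of Pdgfb was 20.5% ± 1.21 in control and 17.4% ± 1.06 with PDGF-DD. Pdgfc held 7.94% ± 0.917 and 8.54% ± 0.691, and Pdgfd 4.55% ± 0.803 and 2.88% ± 0.153. Transcripts of Pdgfd, the ligand added to the medium, were thus the smallest share in both groups. The summed ligand level was 82.5 ± 4.22 TPM in control and 89.1 ± 3.59 TPM with PDGF-DD, and its libraries overlapped between the groups.

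**Figure D4:**
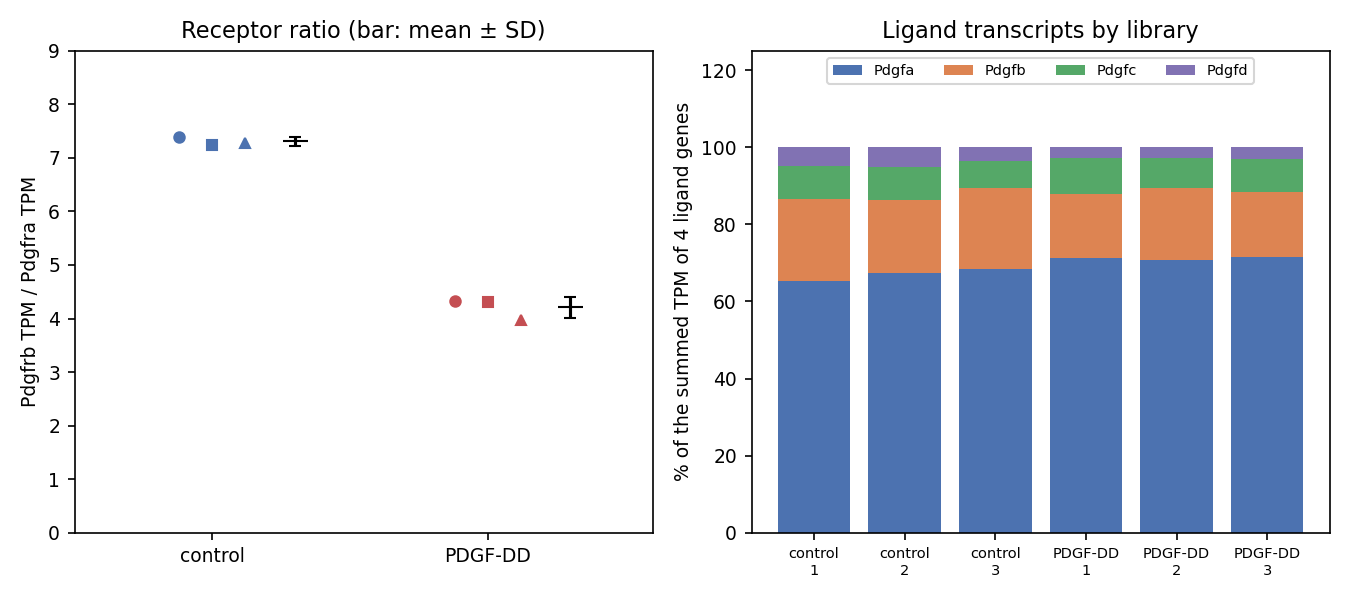
Left, TPM of Pdgfrb divided by TPM of Pdgfra in each library, with the mean ± SD; right, share of each ligand gene in the summed TPM of Pdgfa, Pdgfb, Pdgfc and Pdgfd by library. The ratio is 7.236 to 7.397 in control and 3.98 to 4.335 with PDGF-DD, and Pdgfa is the largest share in each library.

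The deposited columns also show the transcript length that the counting assigned to a gene in each library. This mean effective length, the count divided by depth and FPKM (fragments per kilobase of transcript, scaled to depth), is averaged over the transcript variants that the counting assumed for the gene. For Pdgfa it was 2444, 2459 and 2460 bases in control and 2339, 2350 and 2362 bases with PDGF-DD. The groups did not overlap, and the PDGF-DD mean was lower by 4.24% (change of -4.24%, and -4.47% to -4.01% with any library left out). Of 10892 tested genes with at least 1 FPKM in every library, 12.7% had groups that did not overlap in this length, and 0.633% were shorter with PDGF-DD by at least as much as Pdgfa without overlap. The median change over these genes was -0.00261%. Pdgfa is known to be spliced into variants with and without a basic C-terminal stretch that holds the protein at the cell surface. The lengths do not show which variants moved. The annotation used by the authors is not stated, and it differs from GENCODE M21, whose longest coding transcripts of Pdgfa, Pdgfb and Nrp1 (2060, 2944 and 3597 bases) are shorter than the effective lengths.

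TPM divides the count by this length, and the log2 difference of Pdgfa was 0.20 in TPM and 0.15 in CPM. The test of log2(TPM + 1) with limma gave a log2 fold change of 0.20 (limma adjusted p = 0.016). For Pdgfc the effective lengths were 3477, 3477 and 3495 bases in control and 3137, 3486 and 3144 bases with PDGF-DD. PDGF-DD replicates 1 and 3 were thus shorter, and replicate 2 lay among the controls. Pdgfrb and Pdgfrl changed in effective length by -0.114% and -0.0262%, and Nrp1 by -0.179%. For Nrp1, control replicate 2 and PDGF-DD replicates 2 and 3 were all at 5871 bases. Any gap between its groups was thus below the rounding of the FPKM values. The changes in effective length were -0.204% for Pdgfra, -1.21% for Pdgfb and -1.09% for Pdgfd, whose libraries overlapped.

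**Figure D5:**
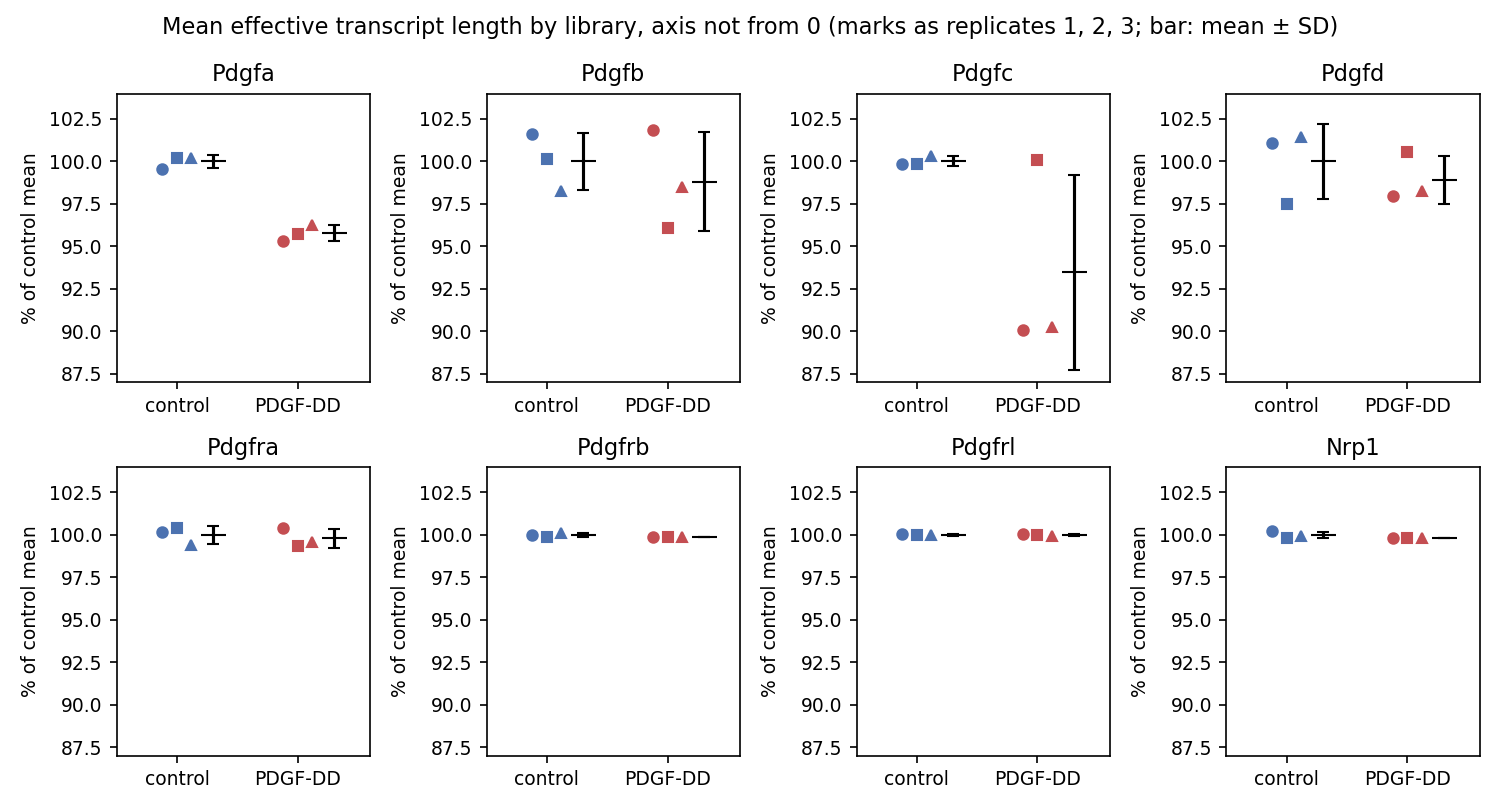
Mean effective transcript length of the 8 PDGF genes by library, as a percentage of the control mean of the gene; the axis does not start at 0, marks are replicates 1, 2 and 3, and the bar is the mean ± SD. All 3 PDGF-DD libraries of Pdgfa are shorter than its controls, and for Pdgfc PDGF-DD replicates 1 and 3 are shorter.

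Upstream sequences are shown for the 3 genes that were called and whose windows hold no exon of the gene in GENCODE M21, to let a reader compare 2 genes that rose with 1 that fell. They are the 250 bases before the RefSeq start, on the plus strand of GRCm38.p6, a later build than the mm9 named for the deposited tables. Windows were found for 5 of the 8 genes. Capitals mark matches to any of 6 motifs searched on both strands. These were the GC box GGGCGG, the NF-Y motif CCAAT, the E-box CACGTG, the AP-1 motif TGANTCA, the TATA motif TATAA and the core of the serum response element.
Pdgfra, chr5:75152001-75152250: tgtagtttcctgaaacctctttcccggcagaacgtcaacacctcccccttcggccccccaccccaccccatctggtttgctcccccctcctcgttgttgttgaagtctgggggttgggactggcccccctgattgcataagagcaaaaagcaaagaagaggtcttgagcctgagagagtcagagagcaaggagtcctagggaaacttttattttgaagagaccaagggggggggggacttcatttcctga
Nrp1, chr8:128358823-128359072: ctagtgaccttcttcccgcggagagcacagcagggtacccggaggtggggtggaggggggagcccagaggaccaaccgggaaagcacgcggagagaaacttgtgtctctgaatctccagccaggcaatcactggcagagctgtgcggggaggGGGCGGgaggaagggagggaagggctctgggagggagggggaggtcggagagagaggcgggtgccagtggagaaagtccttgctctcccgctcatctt
Pdgfd, chr9:6168236-6168485: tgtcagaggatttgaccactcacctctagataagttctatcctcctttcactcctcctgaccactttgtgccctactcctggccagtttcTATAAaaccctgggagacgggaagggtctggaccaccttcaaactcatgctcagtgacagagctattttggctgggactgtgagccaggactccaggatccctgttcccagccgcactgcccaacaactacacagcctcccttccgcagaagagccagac
None of the motifs is in the Pdgfra window, which has 54.4% G and C. The Nrp1 window (64.4% G and C) holds GGGCGG at 98 to 93 bases before the start, a motif in 32.7% of all 32851 windows. The Pdgfd window (53.6% G and C) holds TATAA at 160 to 156 bases before the start, a motif in 22.8% of windows. The window of Pdgfc has a match to the serum response element core at 17 to 8 bases before the start, found in 1.47% of windows. Both windows of Pdgfa hold the GC box. They contain 86 and 93 exonic bases of that gene and have 66.4% and 72.4% G and C. The median over all windows is 52.4% G and C. The motifs CCAAT (33.8% of windows), CACGTG (6.02%) and TGANTCA (6.75%) were in none of the windows found for the PDGF genes. No matches overlapped each other.

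Genes that work with the PDGF system were counted in a list of 60 genes, of which 55 were tested. The list was chosen with earlier results of these data known. Its shares of called genes, and those of its groups, describe the list and are not read as a result about these genes. In this list 14 rose, 9 fell and 32 did not pass, so that 41.8% were called beside 36.5% of all genes. The median log2 fold change was 0.0019, near that of all genes tested.

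Ligand activation genes went both ways, with 3 of 10 tested genes higher and 2 lower. Plaur, the urokinase receptor, rose from 39.8 ± 0.576 to 61.7 ± 1.06 CPM. Plat, the tissue plasminogen activator, which activates PDGF-C, rose by a log2 fold change of 0.14, a call lost in limma on log2(TPM + 1) (adjusted p = 0.0613). The proprotein convertase genes Pcsk6 and Pcsk5 fell (log2 fold changes -0.28 and -0.41). Plg, which encodes plasminogen, was at 0 counts in all 6 libraries.

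All 5 tested carriers and co-receptors passed, 3 higher and 2 lower, where 36.5% of all genes tested passed. Cd44, a hyaluronan receptor, rose from 172 ± 1.4 to 279 ± 8.31 CPM. Cspg4, a membrane proteoglycan that binds PDGF-AA, and Nrp2, the relative of Nrp1, rose by log2 fold changes of 0.24 and 0.17. Lrp1, an endocytic receptor that associates with PDGFRβ, fell from 2130 ± 111 to 1720 ± 33.0 CPM. Sparc, a matrix protein that binds PDGF-B, had a log2 fold change of -0.08 at an edgeR adjusted p of 0.0473, and passed in 5 of 16 alternatives. Among relatives of the receptors, Kit fell from 18.4 ± 0.661 to 14.6 ± 0.506 CPM. Csf1r, the other relative tested, was not called (12.6 ± 0.727 CPM in control, 13.1 ± 0.477 CPM after PDGF-DD).

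Most genes of the proteins that bind the activated receptors did not pass: of 25 tested, 18 were not called, 3 rose and 4 fell. The share called was 28.0%, beside 36.5% of all genes tested. Rasa1, the Ras GTPase-activating protein that docks on PDGFRβ, rose from 113 ± 6.61 to 176 ± 5.37 CPM. The adaptor genes Crk and Crkl had log2 fold changes of 0.12 and 0.13, and passed in 11 and 7 of 16 alternatives. Gab1, a docking protein, fell from 48.1 ± 1.6 to 34.2 ± 0.995 CPM. Grb10, an adaptor and the most abundant of the group, fell (log2 fold change -0.22), as did Stat3 (-0.13), the latter not without PDGF-DD replicate 3 (edgeR adjusted p = 0.106).

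In the group of phosphatases and other regulators of the receptors, 5 of 13 tested genes rose and none fell, while 19.1% of all genes tested rose. As the list was chosen with earlier results known, the difference from that share is not read as a result about the group. Lrig1, a membrane protein that promotes removal of receptor tyrosine kinases, rose from 34.0 ± 0.784 to 57.1 ± 0.601 CPM. Cblb, a ubiquitin ligase, rose from 32.2 ± 0.647 to 47.5 ± 4.19 CPM, and the phosphatase gene Ptpn12 by a log2 fold change of 0.25. Ptpn11, which encodes the phosphatase SHP2 and was the most abundant of the group, was not called (210.0 ± 8.24 CPM in control, 222 ± 1.96 CPM after PDGF-DD).

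The genes whose profiles over the 6 libraries were most like those of the receptor genes were found by the root mean square difference of centred log2 CPM, among 10458 genes averaging 5 CPM or more. For Pdgfra these were Spred1, an inhibitor of Ras signalling (0.0154), Mtcl1 (0.0264) and Arhgap18 (0.0275). For Pdgfrb they were Ube2h, a ubiquitin-conjugating enzyme (0.0153), Plcl1 (0.0156) and Pdcd4, an inhibitor of translation (0.0192). For Nrp1 they were Gemin5 (0.019), the metalloproteinase gene Adam12 (0.0285) and the pseudouridine synthase gene Pus7 (0.0349). Between Pdgfra and Nrp1 the difference was 0.0555, beside 0.3997 between Pdgfra and Pdgfrb. The 6 libraries fall into 2 groups, so genes with like changes between the groups come out as near in this measure. The larger difference between Pdgfra and Pdgfrb thus mainly restates their opposite changes and is not a separate result.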

How the data were processed

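Messenger RNA of 3 control and 3 PDGF-DD libraries of mouse cardiac fibroblasts was selected with oligo(dT) and sequenced on DNA nanoballs, per the labels' protocols. The submitters' processing notes name build mm9 and, without roles, the tools RSEM 1.2.12, Bowtie2 2.2.5, HISAT2 2.0.4 and DESeq2 1.4.5. Neither annotation nor strandedness is stated there, so reads where genes overlap may be assigned to either. The deposited read count columns hold estimated counts per gene, which the authors left unnormalized, per the file headers. The deposited FPKM values are scaled to transcript length and depth, and the deposited TPM values were scaled by the authors to an equal sum per library, per the file headers.

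Estimated counts were rounded, filtered with filterByExpr at its defaults (13270 genes left), scaled with TMM factors (0.995 to 1.005) and compared, control against PDGF-DD, with edgeR 4.0.16 (quasi-likelihood F test, robust, two-sided) in R 4.3.3. Adjusted p-values are Benjamini-Hochberg over all tested genes. CPM uses TMM-scaled library sizes. No p-value was computed for the list, for ratios, for levels or for effective lengths, a measure added after the deposited tables had been examined. Counting precision rests on 69 to 118 counts per library for Pdgfd and on 183 or more for the other genes.

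Alternatives were DESeq2 1.42.0 (RLE factors in edgeR as well), limma 3.58.1 on log2(TPM + 1), log2(TPM + 0.1) and log2(FPKM + 1), upper-quartile and total count scaling, no low-count filter, unrounded counts, each library left out and the replicate number as a block. The PDGF genes and lists were chosen with earlier results of these data known. Other genes are named by a rule: up to 3 called genes per direction and group by smallest p, the most abundant of each group and the 3 nearest profiles. Plg, Csf1r, Ddi1 and the markers, Tcf21 included, are named as checks. Promoter sequences are from RefSeq on GRCm38.p6 and were matched by symbol. Of the list, 1 gene (Tmprss2) was not analysed here. Another gene of the list that the rule would name is not reported here by name.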

Additional observations from a re-analysis of the deposited data

How the results depend on the processing

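Results were recomputed under 16 alternatives per test. Pdgfra, Pdgfrb, Nrp1 and Pdgfd were called in the same direction under each of them, with log2 fold changes of 0.35 to 0.43, -0.43 to -0.36, 0.39 to 0.50 and -0.65 to -0.30. The smallest absolute value for Pdgfd (-0.30) came from limma on log2(FPKM + 1), where the added 1 understates the change of low genes. For Pdgfa the log2 fold change was 0.13 under upper-quartile scaling and 0.15 in DESeq2, where the call was lost, and ranged from 0.12 to 0.19 with a library left out; the cause was not tested. That of Pdgfb ranged from -0.205 to -0.10 with a library left out and passed only without control replicate 2. Pdgfc and Pdgfrl passed under none of the 16 alternatives, with lowest adjusted p-values of 0.0708 and 0.0736. No single gene or ratio reversed its direction under the alternatives. Of 677 alternative values, 643 kept their side of the threshold, stayed within the spread or, for numbers of genes, stayed near the main number. Numbers of genes were judged by that nearness alone and could not reverse. Between 4 and 5 PDGF genes, 17 and 24 genes of the list and 3592 and 5035 genes in all were called. Of all genes called, 2535 were higher and 2310 lower, but under upper-quartile scaling 2244 were higher and 2636 lower. The log2 ratio of Pdgfrb to Pdgfra differed between groups by -0.82 to -0.76.

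Samples share replicate numbers, but the labels tie no number to an animal or culture. Deviations of same-numbered libraries from their group means correlated at -0.0661, -0.0911 and -0.0257 across genes. No control library correlated best with its own number, so no pairing by number was seen. With 3 libraries per group these correlations cannot show whether same-numbered libraries shared an animal or culture. With the replicate block 4345 genes were called and 5 of the 8 PDGF genes, with log2 fold changes of 0.40 for Pdgfra, -0.40 for Pdgfrb, 0.43 for Nrp1, -0.55 for Pdgfd and 0.15 for Pdgfa. Among the other genes named, Crkl and Sparc lost their call with the block (adjusted p = 0.0786 and 0.149).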
